A study of Mus musculus with 4 samples.

Results

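The mRNAs described here belong to 9 genes, namely the transcription factors Wt1, Sox9, Sox8, Gata4, Gata1, Nr5a1 and Dmrt1, the follicle-stimulating hormone (FSH) receptor Fshr and the hormone Amh. They were picked by symbol from the 55357 genes of the count files, and each symbol matched 1 row. Whole testes of 8-week-old mice on a C57BL/6-based background were profiled by single-nucleus RNA-seq (10x Genomics 3′ chemistry) in 4 libraries. WT mice gave 2 libraries and Dhx37-/- mice gave the other 2, named as biological replicates by their labels, so p-values describe the spread between these samples. In the Dhx37-/- mice, which the labels call CKO, a floxed Dhx37 was deleted by an Amh-Cre transgene, so that Sertoli cells are the cells meant to lose this RNA helicase of ribosome assembly, and the Cre is driven by the promoter of Amh, itself a gene described here. Other testis cells were not targeted, and nothing in the labels says how many animals entered a library. The comparisons ask where in the adult testis these genes were detected, and whether their levels differed between genotypes.

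Sertoli cells are the somatic cells that line the seminiferous tubules and nurse the germ cells. In the fetal gonad WT1, GATA4 and NR5A1 prepare the supporting lineage, SRY then switches on SOX9, and SOX9 with SOX8 directs Sertoli differentiation, while DMRT1 holds the male identity of these cells after birth. Mature Sertoli cells answer FSH through FSHR, which signals by cyclic AMP, and they make GATA1 in a stage-dependent way. AMH, made by fetal and immature Sertoli cells to regress the Müllerian ducts, is switched off around puberty.

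The libraries held 51797891 to 75611263 UMIs (unique molecular identifiers, counted cDNA molecules), and 8295 to 10030 nuclei of each were kept, 37036 in all. Nuclei were assigned to classes from marker genes among which none of the 9 genes stood, by requiring an excess of several distinct markers over the rate in all nuclei. No class was given to 25985 nuclei, 82.5 and 79.1% of those kept in WT replicates 1 and 2, and 53.3 and 65.4% in Dhx37-/- replicates 1 and 2. These entered no comparison of classes. They held 1875 of 3075 Dmrt1 UMIs in kept nuclei, 1037 of 2323 Fshr UMIs and 895 of 4504 Wt1 UMIs. For Sox9 it was 560 of 1099 UMIs, for Gata1 508 of 872, for Nr5a1 528 of 1507 and for Gata4 737 of 4664. Sox8 had 75 of 201 UMIs and Amh 15 of 22 in nuclei without a class. There were 393 Sertoli-gated nuclei. WT replicates 1 and 2 gave 54 and 13 of them, and Dhx37-/- replicates 1 and 2 gave 117 and 209. WT replicate 2 therefore rested on 104608 UMIs against 1960444 in Dhx37-/- replicate 2. The gate itself raises its markers, and of the 17 Sertoli markers 16 were at least 2-fold higher in these nuclei than in the others, and Trf was at 0.656 times their level. In a separate clustering of the same nuclei without the 9 genes, 390 of the 393 nuclei fell into the cluster that had the Sertoli name. Free RNA was estimated at 5.21 to 9.36% of the UMIs of Sertoli-gated nuclei, and the summed level of 7 elongating spermatid markers in them was 1345 and 1596 CPM (UMIs of a gene scaled to a common total over all genes) in WT and 3809 and 2466 CPM in Dhx37-/-, without overlap between genotypes. Of 9 macrophage markers, summed to 373 to 474 CPM, 7 had no UMI there in WT replicate 2. Pairs of libraries shared 19 to 29 barcodes among kept nuclei, where random draws would give 10.7 to 14.6.

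Sertoli-gated nuclei made up 0.545 and 0.157% of nuclei for the WT replicates and 1.33 and 2.08% for the Dhx37-/- replicates. The ranges of the genotypes did not overlap, with a mean in Dhx37-/- of 1.71% ± 0.533 (SD, n = 2) against a WT mean of 0.351% ± 0.274 (SD, n = 2). A two-sided exact permutation test gave p = 0.333, the smallest value that 2 libraries against 2 allow. Shares of nuclei depend on how well each cell type survives nuclear isolation, and a count of nuclei in a gate is not a count of Sertoli cells in the tissue.

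Dhx37 itself was sparse. Sertoli-gated nuclei held few Dhx37 UMIs, 4 and 3 for WT and 9 and 14 for Dhx37-/-, or 8.35, 28.7, 8.99 and 7.14 CPM. The counts were too low to enter the test, and 3′ counts of a whole gene need not show the loss of a floxed part, so they do not check the labels. Over all nuclei kept, the log2 difference of Dhx37 between genotypes was 0.07 ± 0.33 (SE; edgeR adjusted p = 0.927).

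**Figure D1:**
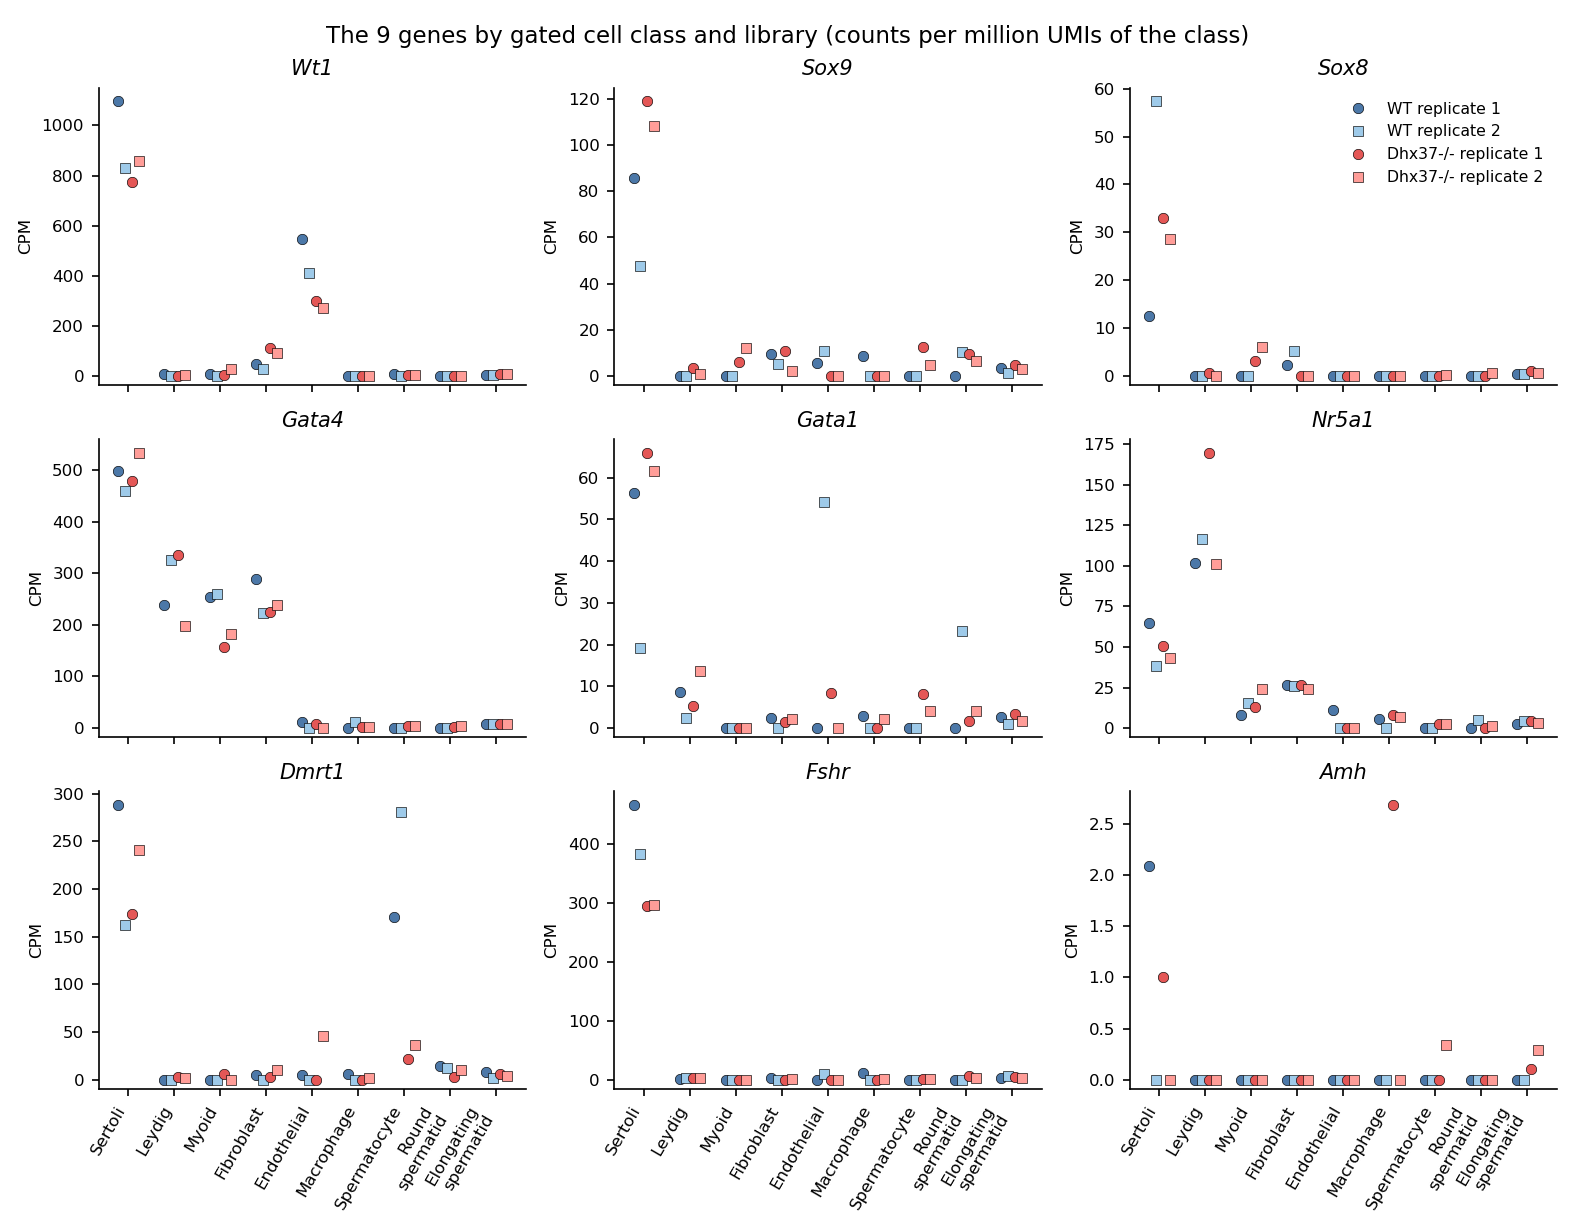
Level of each of the 9 genes in CPM (linear axes, a different scale per gene) in 9 gated cell classes, with 1 point per library. In Wt1, Sox9, Dmrt1 and Fshr the Sertoli-gated points stood far above the Leydig-gated points, Nr5a1 was higher in Leydig-gated nuclei, and each Amh point above 0 stands for 1 or 2 UMIs.

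Of the 9 genes, 7 had enough UMIs over the classes to be tested, and all 7 were higher in Sertoli-gated nuclei than in the mean of 7 other classes. Here and in every log2 difference from the other classes, this is the mean of their log2 levels, not of their CPM. Classes with almost no UMIs of a gene pull it down. Across the 14274 genes tested 34.3% were called higher in this contrast (edgeR quasi-likelihood test, Benjamini-Hochberg adjusted p under 0.05, library as a block). The other classes were Leydig, macrophage, peritubular myoid, interstitial fibroblast, spermatocyte, round spermatid and elongating spermatid nuclei. Sox8 and Amh did not pass the filter on low counts. Since unspliced RNA of long genes yields more UMIs in nuclei, levels are compared between classes and libraries for 1 gene at a time, and not between genes. In what follows, 4 values in a row are those of WT replicate 1, WT replicate 2, Dhx37-/- replicate 1 and Dhx37-/- replicate 2, unless a sentence names other libraries.

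Wt1, a zinc finger factor needed for gonad formation and for keeping Sertoli identity, stood at 1096, 832, 775 and 858 CPM in Sertoli-gated nuclei, from 525, 87, 776 and 1683 UMIs. The log2 difference from the mean of the other classes was 7.43 ± 0.18 (SE; edgeR adjusted p = 2.35e-37). Leydig-gated nuclei were at 2.37 to 7.71 CPM, from 8, 1, 4 and 7 Wt1 UMIs where free RNA was estimated to give 7.62, 0.508, 3.79 and 6.28. Macrophage-gated nuclei were at 0 to 2.96 CPM. Of the Wt1 UMIs in kept nuclei, 54.0, 39.4, 64.0 and 80.3% lay in the Sertoli-gated nuclei of the 4 libraries, shares in the order of their 54, 13, 117 and 209 nuclei.

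Wt1 was also present in nuclei gated by endothelial markers. There it stood at 548, 413, 298 and 274 CPM, from 97, 38, 35 and 6 UMIs in 59, 24, 35 and 7 nuclei, while free RNA would account for at most 1.72 of these UMIs in any library. Of these 125 nuclei, 48.8% held a Wt1 UMI (95% Wilson interval 40.2 to 57.5%), against 0.488% of 410 macrophage-gated nuclei. Their median depths were alike, at 2607 to 3928.5 UMIs per nucleus over the libraries against 2535 to 3344.5. The signal was in the cluster led by Mecom, Slco1a4, Ptprb and Abcb1a, blood endothelial genes, at 569, 1049, 555 and 425 CPM. In the endothelial cluster led by Ccl21a, Mmrn1 and Reln, known from lymphatic endothelium, no Wt1 UMI was found in 35 nuclei. Endothelial nuclei were too few in Dhx37-/- replicate 2 to enter a test, so the Wt1 difference from the other classes leaves them out. Pooled over the 4 libraries, Wt1 in Sertoli-gated nuclei was 2.01 times its level in endothelial-gated nuclei (866 against 431 CPM). Interstitial fibroblasts had a lower Wt1 level of 48.8, 31.1, 112 and 93.8 CPM, with both Dhx37-/- values above both WT values in a class where genotypes were not tested. The Sertoli-gated level was higher by a log2 of 3.89 ± 0.27 (SE; edgeR adjusted p = 8.60e-18).

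Gata4, a zinc finger factor of the somatic gonad, had a broad pattern. In Sertoli-gated nuclei it stood at 497, 459, 478 and 533 CPM, a narrow range. Leydig-gated nuclei had 238, 325, 334 and 197 CPM, peritubular myoid nuclei 253, 261, 157 and 181 CPM, and interstitial fibroblasts 288, 223, 224 and 238 CPM. The Sertoli-gated libraries all lay above the libraries of these 3 classes, whose own ranges overlapped. Macrophage, endothelial, spermatocyte and spermatid nuclei were at 0 to 11.8 CPM. Against the mean of the other classes the log2 difference was 4.56 ± 0.17 (SE; edgeR adjusted p = 6.51e-29). Against Leydig-gated nuclei alone it was 0.87 ± 0.23 (SE; edgeR adjusted p = 0.00148), in a contrast that called 20.9% of genes higher in Sertoli-gated nuclei and 19.6% lower. Against myoid nuclei the log2 difference was 1.52 ± 0.25 (SE), and against interstitial fibroblasts 1.33 ± 0.24 (SE), both past the threshold in edgeR.

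Nr5a1, which encodes steroidogenic factor 1 and turns on steroid enzymes, had the opposite order. Leydig-gated nuclei held 102, 116, 170 and 101 CPM and Sertoli-gated nuclei 64.7, 38.2, 50.9 and 43.4 CPM, from 31, 4, 51 and 85 UMIs. The groups of 4 values did not overlap, and the Sertoli-gated level was lower by a log2 of 1.22 ± 0.24 (SE; edgeR adjusted p = 3.60e-05). Interstitial fibroblasts came next with 24.0 to 26.8 CPM and myoid nuclei with 8.29 to 24.2 CPM. Sertoli-gated nuclei were above these, and above the mean log2 level of the 7 classes, Leydig included, by 2.71 ± 0.23 (SE; edgeR adjusted p = 8.70e-15). They held 11.9, 1.88, 9.27 and 17.6% of the Nr5a1 UMIs in kept nuclei of each library, whose numbers of Sertoli-gated nuclei also differed.

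Sox9, the factor that SRY switches on to start Sertoli differentiation, stood at 85.6, 47.8, 119 and 108 CPM in Sertoli-gated nuclei, from 41, 5, 119 and 212 UMIs. In no other fitted class did any library exceed 12.7 CPM, and the log2 difference was 4.72 ± 0.24 (SE; edgeR adjusted p = 2.28e-23). Its relative Sox8, a SOX factor that acts beside SOX9, gave 6, 6, 33 and 56 UMIs there, or 12.5, 57.4, 33.0 and 28.6 CPM. Leydig-gated nuclei had 1 Sox8 UMI in 5113849 and macrophage-gated nuclei had 0 in 1322535, so that the pooled Sertoli level was at least 12.6-fold higher than in macrophages, taking 3 counts as the floor over the 4 libraries. Elongating spermatid nuclei held 18 Sox8 UMIs, a pooled level that the Sertoli level exceeded 36.4-fold. Low counts kept Sox8 out of the class test.

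Dmrt1, a DM domain factor that prevents Sertoli cells from turning towards a granulosa fate and that also works in germ cells, was found in both. Sertoli-gated nuclei held 288, 163, 174 and 241 CPM, with a log2 difference from the other classes of 5.42 ± 0.26 (SE; edgeR adjusted p = 1.09e-24). Spermatogonia-gated nuclei were rare, at 2, 0, 6 and 19 nuclei. Their Dmrt1 UMIs numbered 2 for WT replicate 1 and 7 and 62 for the Dhx37-/- replicates, and over all libraries their level was 405 CPM (exact 95% Poisson interval 317 to 511, counting error only). The cluster with the highest spermatogonia marker score, led by Auts2, Neto2, Sdk1 and Mbnl3 and named spermatocyte by its markers, held 332, 333, 147 and 230 Dmrt1 CPM in 175, 78, 225 and 624 nuclei. It is called the early germ cell cluster below. In the other 2 spermatocyte clusters Dmrt1 was at 0 to 5.52 CPM. Spermatocyte-gated nuclei numbered only 26 and 13 in the WT libraries, against 146 and 470 in the Dhx37-/- libraries. Their Dmrt1 levels fell into separate ranges by genotype, 170 and 281 CPM for WT against 22.0 and 36.3 CPM for Dhx37-/-. The spermatocyte cluster led by Stox1 and Gm14244, nearly free of Dmrt1, had 3, 1, 80 and 264 nuclei, and its part in that gap was not tested.

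Gata1, known from blood cells and from Sertoli cells of certain tubule stages, stood at 56.4, 19.1, 65.9 and 61.7 CPM in Sertoli-gated nuclei, from 27, 2, 66 and 121 UMIs. Leydig-gated nuclei had 2.42 to 13.7 CPM, and peritubular myoid nuclei had no Gata1 UMI in 784034. The log2 difference from the mean of the other classes was 4.89 ± 0.34 (SE; edgeR adjusted p = 1.96e-17). Endothelial-gated nuclei of WT replicate 2 had 5 Gata1 UMIs, or 54.3 CPM, while the other libraries had 0 or 1 UMI there, and its round spermatid nuclei had 23.4 CPM from 9 UMIs, so that in this library Sertoli-gated nuclei did not stand above them. The clusters named endothelial held no Gata1 UMI in any library, and 13 of the 24 endothelial-gated nuclei of WT replicate 2 lay in them.

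Fshr, the receptor through which FSH reaches Sertoli cells, stood at 466, 382, 295 and 297 CPM in Sertoli-gated nuclei, from 223, 40, 295 and 582 UMIs. Leydig-gated nuclei had 0.963 to 3.56 CPM, and myoid nuclei had no Fshr UMI. The log2 difference from the mean of the other classes was 7.71 ± 0.23 (SE; edgeR adjusted p = 7.35e-32). Outside the somatic classes, a large unnamed cluster led by Gm20125, Gm44151 and 1500015L24Rik held a low Fshr level of 14.5, 40.2, 16.9 and 19.4 CPM. In it WT replicate 2 stood above the other libraries, and its nuclei held 216 of the 491 Fshr UMIs of that library, more than its 40 in Sertoli-gated nuclei.

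Amh was near 0 throughout. It had 65 UMIs in all barcodes and 22 in kept nuclei, of which 2 lay in Sertoli-gated nuclei, 1 in WT replicate 1 and 1 in Dhx37-/- replicate 1. Of the 393 Sertoli-gated nuclei 0.509% held an Amh UMI (95% Wilson interval 0.140 to 1.84%), against 0.244% of 410 macrophage-gated nuclei. Free RNA was estimated to give at most 0.0187 Amh UMIs in the Sertoli-gated nuclei of any library. With 2 UMIs no level could be compared.

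**Figure D2:**
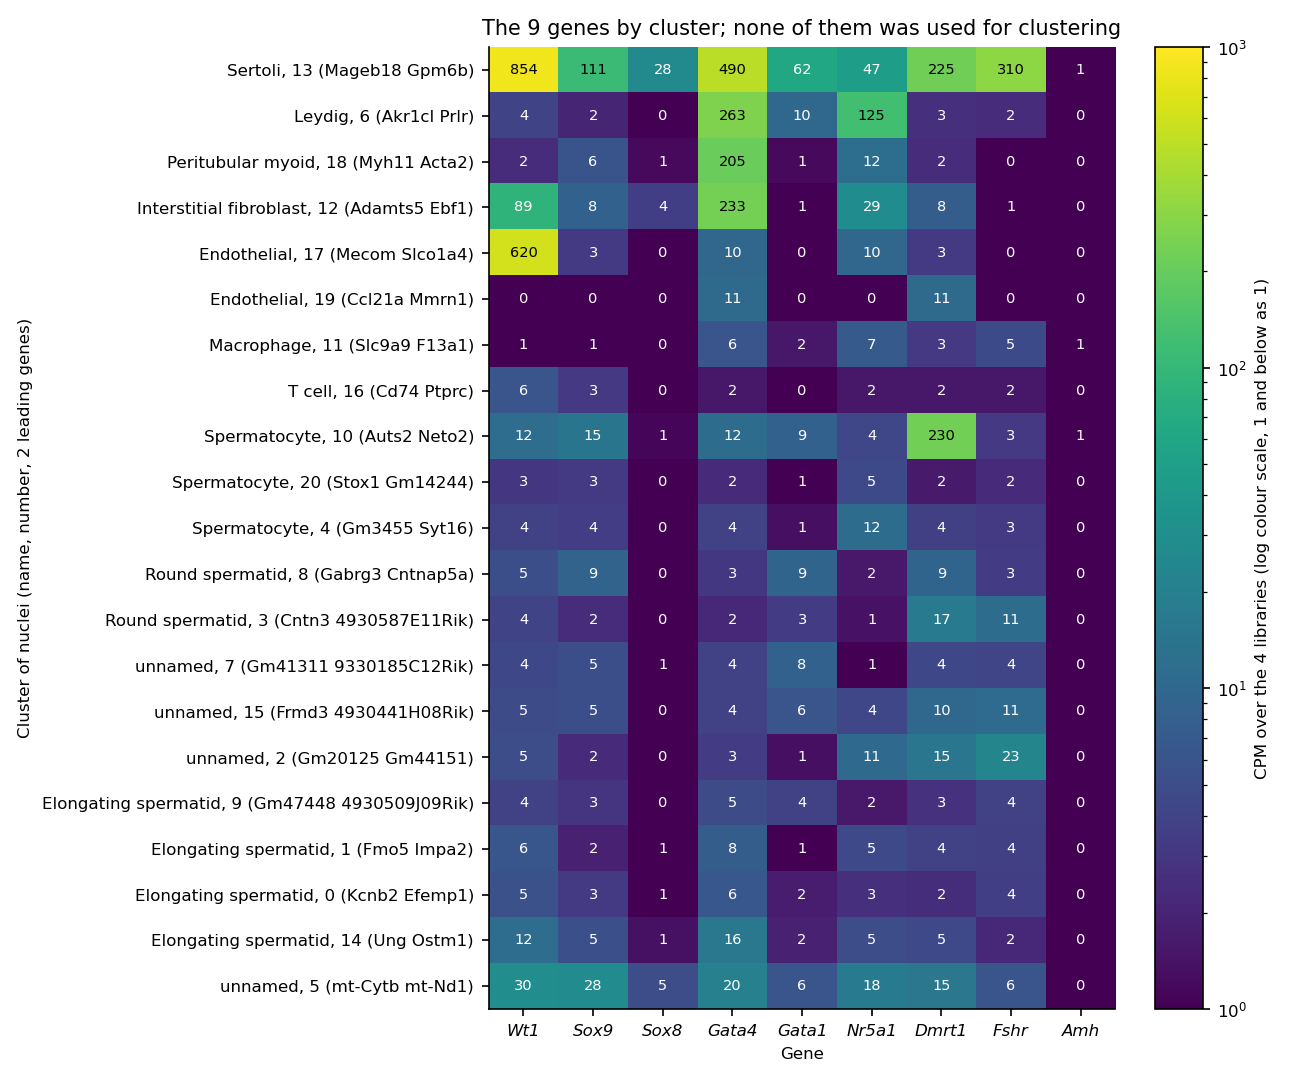
Level of each gene in CPM over the 4 libraries in each of 21 clusters of nuclei, with the value printed in each cell and a log colour scale. Besides the Sertoli cluster, Wt1 stood out in the endothelial cluster led by Mecom, Gata4 in Leydig, myoid and fibroblast clusters, Nr5a1 in the Leydig cluster and Dmrt1 in the cluster led by Auts2.

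Promoters were at hand for 3 of the 9 genes. The 250 bases before the start of Fshr and of Sox8 are shown because both genes were among those concentrated in Sertoli-gated nuclei and both windows hold the E-box CACGTG, a palindromic site read by basic helix-loop-helix factors. They come from RefSeq (GRCm38.p6), for Fshr chr17:89200676-89200925 and for Sox8 chr17:25570687-25570936, both on the minus strand, with the E-box in capitals.
Fshr: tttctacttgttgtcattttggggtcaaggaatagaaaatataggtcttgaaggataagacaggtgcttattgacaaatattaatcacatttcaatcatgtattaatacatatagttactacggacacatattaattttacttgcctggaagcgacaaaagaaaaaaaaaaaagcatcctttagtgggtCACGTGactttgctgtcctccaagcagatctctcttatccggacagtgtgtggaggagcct
Sox8: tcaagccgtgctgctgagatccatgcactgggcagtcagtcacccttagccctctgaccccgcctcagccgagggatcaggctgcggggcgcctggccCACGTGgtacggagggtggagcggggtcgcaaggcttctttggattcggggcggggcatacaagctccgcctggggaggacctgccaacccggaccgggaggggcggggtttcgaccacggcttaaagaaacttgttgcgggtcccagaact
The E-box began at position -61 of Fshr and at position -152 of Sox8, counted from the start. It was searched for after the sequences had been read, and 6.02% of 32851 promoter windows of this length held it. The windows differed in composition, with 36.8% G and C in Fshr and 65.6% in Sox8. None of 7 other motifs, searched on both strands, was in the Fshr, Sox8 or Gata1 window. The SOX motif ACAAT was in 27.7% of all windows. For GATA factors the letters AGATAA were in 9.99% of windows, and the variant TGATAA was in 7.94%. The NR5A motif AAGGTCA was in 4.08%, the DMRT motif TACANTGT in 2.35%, the WT1 motif GNGTGGGNG in 12.7% and the cyclic AMP response element TGACGTCA in 1.55%. These are matches of letters, not sites.

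Single Sertoli-gated nuclei held several of the 9 genes at once, and at most 8. The median nucleus held UMIs of 5 of them, 392 of 393 nuclei held at least 1, and 370 (94.1%) held both Wt1 and Gata4. Leydig-gated nuclei had a median of 1 gene, and 1.68% of them held Wt1 with Gata4. In macrophage-gated nuclei 94.1% held none. The Sertoli-gated medians were 5, 4, 5 and 5 genes per nucleus, the lower value being that of WT replicate 2 with its 13 nuclei. Sertoli-gated nuclei were deeper, with library medians of 7956 to 9203 UMIs against 4814 to 6651.5 for Leydig-gated and 2535 to 3344.5 for macrophage-gated nuclei.

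Each nucleus was therefore thinned to 2000 UMIs, which left out 4 Sertoli-gated nuclei of 393, 15 Leydig-gated nuclei of 835 and 84 macrophage-gated nuclei of 410. After thinning, Wt1 was seen in 78.9% of Sertoli-gated nuclei (98.2% unthinned) and Gata4 in 62.7% (95.2%). Fshr was seen in 40.1% (70.0%), Dmrt1 in 34.4% (71.8%) and Sox9 in 16.5% (58.3%). Gata1 reached 13.9% (38.2%), Nr5a1 7.71% (32.6%) and Sox8 4.88% (22.1%). Among thinned macrophage-gated nuclei the share was 0 to 0.613% for 8 of the 9 genes and 2.15% for Nr5a1. Thinned Leydig-gated nuclei held Gata4 in 38.9% and Nr5a1 in 21.2%, while Wt1, Sox9, Sox8, Gata1, Dmrt1 and Fshr were at 0.122 to 0.732%. The cells are pooled over libraries here, so the intervals in the plot of thinned shares cover counting error only.

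**Figure D3:**
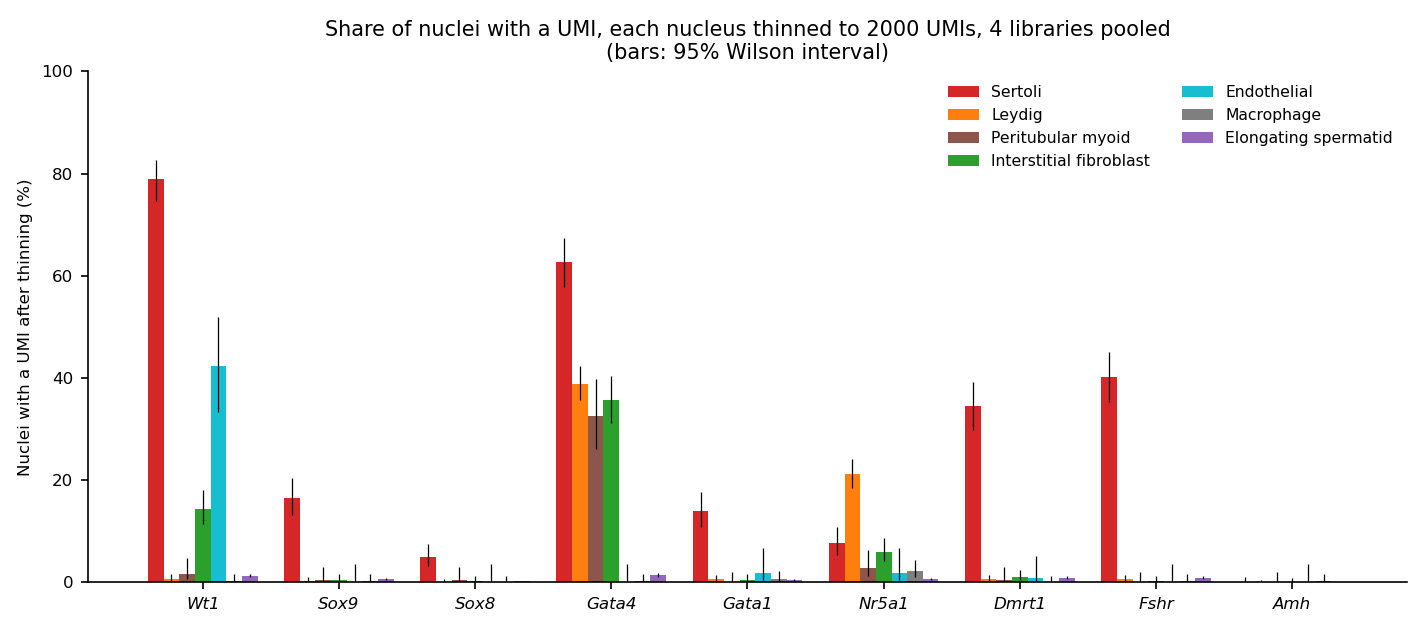
Share of nuclei (%) with at least 1 UMI of each gene after thinning every nucleus to 2000 UMIs, pooled over the 4 libraries for 7 gated classes, with 95% Wilson intervals. Sertoli-gated nuclei reached 78.9% for Wt1 and 40.1% for Fshr, endothelial nuclei 42.3% for Wt1, and Leydig-gated nuclei 38.9% for Gata4 and 21.2% for Nr5a1.

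Between genotypes, no gene described here was called changed in Sertoli-gated nuclei. Across 9565 genes tested the share called by edgeR was 0% (0 genes; 760 had an unadjusted p under 0.05), and DESeq2 also called 0 (144 unadjusted). Of the 9 genes 8 were tested, Amh having too few UMIs. Their log2 differences, Dhx37-/- minus WT, ran from -0.62 for Fshr to 0.49 for Sox9, and their standard errors from 0.26 to 0.57. In counts simulated from these libraries, 200 genes were raised in Dhx37-/-. The same test recovered 5% of 2-fold rises with 1 false call and 96% of 4-fold rises with 20 false calls. A rise of the smaller size would thus mostly go uncalled. Decreases, such as the estimate for Fshr, were not simulated.

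For Fshr the WT libraries, at 466 and 382 CPM, both stood above the Dhx37-/- libraries, at 295 and 297 CPM. The log2 difference was -0.62 ± 0.27 (SE; edgeR unadjusted p = 0.0394 and adjusted p = 0.622). Without WT replicate 2, whose 13 nuclei held 40 Fshr UMIs, the difference was -0.77 (edgeR adjusted p = 0.0559) and 483 genes were called, and without WT replicate 1 it was -0.30 (edgeR adjusted p = 0.758). Over 15 alternatives the Fshr difference ran between these values, with adjusted p of 0.0559 to 1.00. For Wt1 the level was 964 ± 187 CPM in WT and 817 ± 59.0 CPM in Dhx37-/- libraries (SD, n = 2 each), with overlapping values and a log2 difference of -0.32 ± 0.27 (SE; edgeR adjusted p = 0.785). Gata4 was at 478 ± 27.0 and 505 ± 38.3 CPM (SD, n = 2 each), with a log2 difference of 0.00 ± 0.26 (SE; edgeR adjusted p = 0.999). Simulated 2-fold rises mostly went uncalled, so a Gata4 change well above this standard error could also be missed.

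Sox9 had higher sums in both Dhx37-/- libraries (119 and 108 CPM) than in both WT libraries (85.6 and 47.8 CPM), with a log2 difference of 0.49 ± 0.32 (SE; edgeR adjusted p = 0.726). In WT replicate 2 this rested on 5 UMIs, and leaving out 1 library moved the difference between 0.29 (without WT replicate 2) and 1.31 (without WT replicate 1). Gata1 also did not overlap, at 65.9 and 61.7 CPM in Dhx37-/- against 56.4 and 19.1 CPM in WT, the latter from 2 UMIs, and its log2 difference was 0.32 ± 0.38 (SE; edgeR adjusted p = 0.861), or 0.064 without WT replicate 2 and 1.79 without WT replicate 1. The elongating spermatid markers in Sertoli-gated nuclei (1345 and 1596 against 3809 and 2466 CPM) separated the genotypes as Fshr, Sox9 and Gata1 did. Free RNA was estimated from protamine and transition protein transcripts to give at most 0.801 Fshr, 1.71 Sox9 and 0.843 Gata1 UMIs in any library. With free RNA subtracted, edgeR also called 0 genes, and any other part of these markers was not tested. How many of all genes separated the genotypes was not counted. Sox8 (0.40 ± 0.57), Nr5a1 (-0.41 ± 0.35) and Dmrt1 (-0.29 ± 0.33, log2 difference ± SE) had overlapping values and edgeR adjusted p of 0.892, 0.795 and 0.854. For Sox8 the mean CPM ran against the sign of the estimate, at 30.8 in Dhx37-/- and 34.9 in WT. Without WT replicate 1 the sign of the difference turned for Wt1, Sox8, Nr5a1 and Dmrt1.

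**Figure D4:**
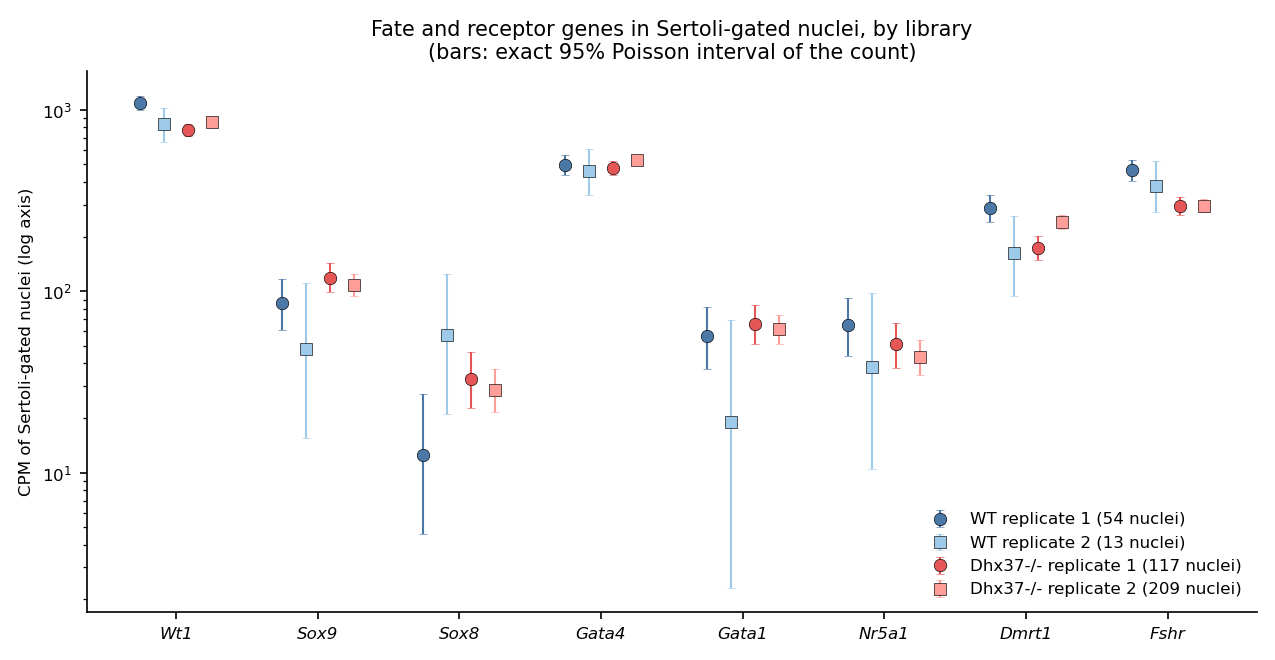
Level in CPM (log axis) of 8 of the genes in the Sertoli-gated nuclei of each library, with exact 95% Poisson intervals of the count; Amh, with 2 UMIs, is left out. The WT replicate 2 intervals are wide because it had 13 nuclei, and the Fshr points of both WT libraries lie above those of both Dhx37-/- libraries.

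In Leydig-gated nuclei edgeR called 0% of 12717 genes between genotypes (0 genes, 744 at an unadjusted p under 0.05), and DESeq2 called 1. Gata4, Nr5a1 and Gata1 were tested there. Their log2 differences were -0.12 ± 0.35, 0.28 ± 0.33 and 0.53 ± 0.71 (SE), with edgeR adjusted p of 0.984, 0.954 and 0.972. Nr5a1 in Dhx37-/- replicate 1, at 170 CPM, stood apart from the other 3 libraries, at 101 to 116 CPM.

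In the early germ cell cluster Dmrt1 was lower in Dhx37-/- libraries. Both WT values (332 and 333 CPM) lay above both Dhx37-/- values (147 and 230 CPM), and the log2 difference was -0.81 ± 0.24 (SE; edgeR unadjusted p = 0.00492 and adjusted p = 0.117), so it did not pass the threshold. This comparison was added after seeing the data, and 0.949% of 11485 genes were called in it. Without WT replicate 2 the difference was -0.80 (edgeR adjusted p = 0.00283), with 1130 genes called in place of 109. Without Dhx37-/- replicate 1 it was -0.52 (edgeR adjusted p = 1.00) and without Dhx37-/- replicate 2 it was -1.15 (edgeR adjusted p = 0.222), the extremes of 9 alternatives. The Dhx37-/- libraries held 225 and 624 nuclei of this cluster and the WT libraries 175 and 78, and whether the mix of germ cell stages within it differed was not tested. Zfpm2, which encodes a cofactor of GATA factors, passed the test there, at 49.3, 55.5, 125 and 159 CPM (log2 difference 1.46 ± 0.27 SE; edgeR adjusted p = 0.0276).

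Summed over all nuclei kept, Wt1, Sox8 and Gata1 ordered the libraries as their counts of Sertoli-gated nuclei did (54, 13, 117 and 209), and the other genes did not. Wt1 stood at 27.9, 7.02, 34.5 and 46.4 CPM and Gata4 at 26.3, 12.1, 42.9 and 41.0 CPM, so that the Dhx37-/- values exceeded the WT values without overlap. Sox9 (6.17, 3.78, 9.97 and 9.15 CPM), Sox8, Nr5a1, Gata1 (5.05, 4.77, 5.97 and 7.43 CPM) and Fshr (12.4, 15.6, 15.7 and 18.7 CPM) also did not overlap, the Fshr values of WT replicate 2 and Dhx37-/- replicate 1 being nearly equal. The share of all 30032 genes without overlap was not counted, so the separation cannot be read as particular to these genes. For 2 libraries against 2, any such separation has p = 0.333 in an exact permutation test. The log2 differences were 1.11 ± 0.55 for Wt1, 1.15 ± 0.43 for Sox8, 1.03 ± 0.37 for Gata4, 0.84 ± 0.35 for Sox9 and 0.79 ± 0.31 for Nr5a1 (SE), with edgeR adjusted p of 0.312 to 0.369. Dmrt1 (0.54 ± 0.39), Gata1 (0.36 ± 0.32) and Fshr (0.21 ± 0.28) had smaller differences, with adjusted p of 0.494 to 0.715. Of 30032 genes edgeR called 0% (0 genes, 4439 at an unadjusted p under 0.05), and DESeq2 called 273. In such sums more cells of a type and more RNA per cell cannot be told apart. Over 13 alternatives the log2 differences of all 8 genes kept their sign. They ran from 0.36 to 2.48 for Wt1, 0.79 to 1.56 for Sox8, 0.49 to 1.74 for Gata4 and 0.45 to 1.29 for Sox9. The range was 0.53 to 1.02 for Nr5a1, 0.022 to 1.01 for Dmrt1, 0.17 to 0.54 for Gata1 and 0.056 to 0.51 for Fshr. Which of the genes passed the threshold depended on the alternative, and fits without 1 WT library rested on the other WT library alone.

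**Figure D5:**
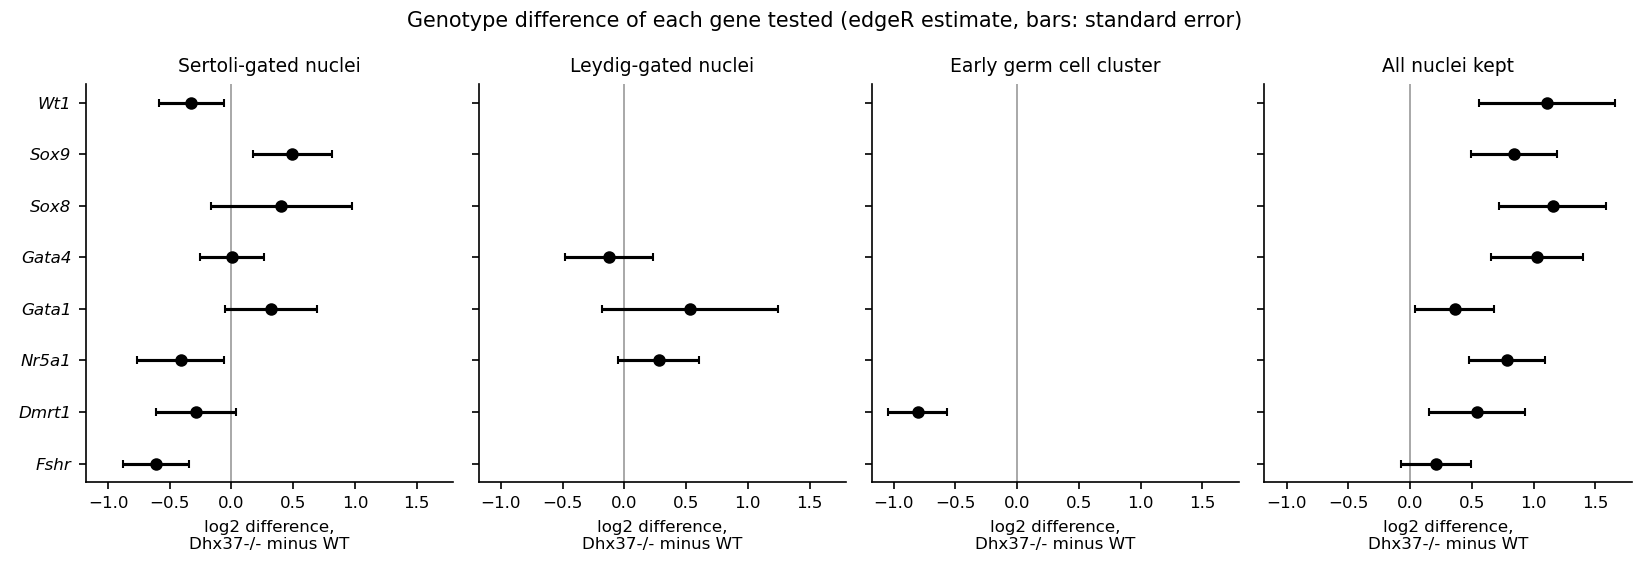
Log2 difference, Dhx37-/- minus WT, of each gene tested, with its standard error, in Sertoli-gated nuclei, Leydig-gated nuclei, the early germ cell cluster and all nuclei kept. Over all nuclei all 8 estimates lie above 0 (0.21 to 1.15), in Sertoli-gated nuclei they lie on both sides of 0 (-0.62 to 0.49), and none passed the adjusted threshold.

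Related genes were read from 7 lists of 83 genes. In the test of Sertoli-gated nuclei against the other classes the median log2 difference over all 14274 genes was -0.21, and 34.3% of them were called higher and 35.9% lower, the shares beside which the counts of each list stand. Of the other hormone receptors, 12 of 13 were tested, 5 were higher and 5 lower, with a median of 0.01. Among those higher were Amhr2, the type II receptor of AMH (155, 182, 223 and 208 CPM in Sertoli-gated nuclei; log2 difference 3.59), Igf1r (2.09), Insr (1.37) and Rara (0.81). Lower were Lhcgr, the luteinizing hormone receptor of Leydig cells, which had 5 UMIs in Sertoli-gated nuclei, and Esr1, Thrb, Nr3c1 and Rxra. Leydig-gated nuclei alone held more Igf1r than Sertoli-gated nuclei in each library, at 1130, 1044, 951 and 718 CPM against 654, 526, 417 and 580. They also held more Insr in each, at 302, 191, 177 and 232 CPM against 167, 163, 173 and 157, and less Amhr2 and Rara. Amhr2 was thus measured in nuclei with almost no Amh UMI.

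The FSH receptor signalling list had 16 of 16 genes tested, 8 higher and 3 lower, with a median of 0.47. Pde4d, a phosphodiesterase that breaks down cyclic AMP, stood at 3613, 3757, 2080 and 3485 CPM (log2 difference 3.74). Gnas, the stimulatory G protein, had a difference of 1.60, the adenylyl cyclase Adcy9 2.52, the phosphodiesterase Pde4b 2.50 and the transcription factor Creb1 0.89. The protein kinase A subunits Prkar2b, Prkaca and Prkacb were also higher, and Pde4a, Crem and Arrb2 were lower. Beside Leydig-gated nuclei alone, Adcy9 was lower in each library, at 311, 220, 185 and 260 CPM against 418, 245, 274 and 356. Prkar2b and Prkacb were also lower in each, Prkaca only in WT replicate 2, and Gnas, Pde4b, Pde4d and Creb1 in none. The AMH receptor signalling list had 8 of 9 genes tested, 4 higher and 2 lower, with a median of 0.54. Higher were the type I receptors Bmpr1a (2.73) and Acvr1 (1.56) and the SMADs Smad5 (0.67) and Smad7 (2.07), and lower were Smad1 and Smad6. Smad4 had 38.2 to 111 CPM in Sertoli-gated nuclei. Leydig-gated nuclei held more Acvr1 in each library, at 251, 640, 502 and 204 CPM against 71.0, 28.7, 76.9 and 76.5. They held less Bmpr1a and Smad7 in each library, and Smad5 went either way.

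Of the hormone-responsive Sertoli products, 8 of 11 were tested, 5 were higher and 2 lower, with a median of 1.72. Among those higher were Inha (2.30), which encodes the inhibin alpha chain, Eppin (3.46), Tubb3 (3.26) and Fabp5 (1.15), and lower were Cyp19a1 and Ldha. Among paralogs of the 9 genes 5 of 10 were tested, with a median of -0.97. Gata6 (4.87) and Dmrta1 (7.34) were higher and Gata3, Dmrtb1 and Dmrtc2 lower.

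Of 14 other testis-determining factors 6 were tested, 1 was higher and 3 lower, with a median of -1.86, and Map3k4, a kinase of the SRY pathway, was higher (1.89) while Zfpm2, Lhx9 and Nr2f2 were lower. Sry, Sox10 and Six4 had no UMI there. Of the 86 Zfpm2 UMIs in Sertoli-gated nuclei 71 were in Dhx37-/- replicate 1. Of the 11 ovarian fate genes 3 were tested (Lef1, Lgr5 and Runx1) and 0 were called higher or lower, with a median of -0.53. Foxl2, the factor that holds granulosa identity, had 0 UMIs in the 3545132 of Sertoli-gated nuclei, which allows up to 0.846 CPM over the 4 libraries. Lef1 had 2, 3, 9 and 8 UMIs, and Esr2, which encodes estrogen receptor beta, had 1, 1, 11 and 13.

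Between genotypes no gene of the 7 lists was called in Sertoli-gated nuclei, in Leydig-gated nuclei or over all nuclei, beside 0% of all genes in each. In Sertoli-gated nuclei the list medians lay between -0.15 and 0.06, beside 0.01 over all genes tested. At an unadjusted p under 0.05 were Ptgds, which encodes a prostaglandin D synthase, and the tubulin gene Tubb3. Ptgds stood at 25.1, 38.2, 96.9 and 98.4 CPM, with both Dhx37-/- libraries above both WT libraries and a log2 difference of 1.72 ± 0.37 (SE; edgeR adjusted p = 0.315). Leydig-gated nuclei held far more Ptgds, at 746, 1117, 3065 and 2139 CPM, again without overlap between genotypes. The summed level of 10 Leydig markers in Sertoli-gated nuclei was 263, 229, 363 and 300 CPM, also without overlap. In WT replicate 2 there was no UMI of 7 of them, Cyp17a1, Insl3 and Hsd3b6 included, and their part in the Ptgds result was not tested. In Leydig-gated nuclei the Ptgds difference was 1.43 ± 0.40 and over all nuclei 2.50 ± 0.32 (SE), with edgeR adjusted p of 0.833 and 0.250. Tubb3 had a difference of 0.92 ± 0.34 (SE; edgeR adjusted p = 0.538).

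For 8 of the genes, leaving out Amh for its low counts, the genes most like each in pattern were found from Pearson's r of log2(CPM + 1) over 36 sums, of 9 classes in 4 libraries. The sums of a library share its depth and the classes dominate the pattern, so r is a description. Nearest to Wt1 were Cttnbp2 (r = 0.895), Fhl1 (0.885) and Slc35f2 (0.882). Nearest to Sox9 were Lpar3 (0.790), Vdr (0.789) and Tox2 (0.781), and nearest to Fshr BC046251 (0.909), Vdr (0.908) and Capn6 (0.908). Vdr encodes the vitamin D receptor and stood at 86.0 to 122 CPM in Sertoli-gated nuclei.

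Gata4 and Nr5a1 shared Mmd2 among their 3 nearest genes. For Gata4 these were Gm16364 (ENSMUSG00000086915; r = 0.931), Klhl23 (0.925) and Mmd2 (0.922), and for Nr5a1 1500009L16Rik (0.903), Etnk2 (0.898) and Mmd2 (0.885). Between themselves Gata4 and Nr5a1 had r = 0.854, and Gata4 with Dmrt1 had r = -0.07. Nearest to Dmrt1 was Kif4 (0.889), a kinesin of dividing cells, then Gm15097 (0.837) and 4930557J02Rik (0.821). Gata1 had A930019D19Rik (0.812), Mcf2 (0.806) and Gm28100 (0.799), and Sox8 had the predicted genes Gm38839 (0.905), Gm38143 (0.891) and Gm37623 (0.888).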

How the data were processed

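Whole-testis nuclei of 8-week-old WT and Dhx37-/- mice were profiled in 4 libraries. The deposited matrices hold raw UMI counts per gene and barcode, which the authors made with Cell Ranger (7.2.0 in the file headers) without filtering to nuclei. The methods name the mm39 build and the submitters' processing notes GRCm38, so no coordinates were taken from the counts.

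Here, nuclei were called by barcode rank and an ambient test, and kept with at least 500 UMIs, 500 to 5000 genes and at most 25% mitochondrial UMIs. Classes required at least 3 distinct markers of 1 of 12 lists (4 for Sertoli) at a Poisson p under 0.0001, and at most 1% mitochondrial UMIs. Nuclei were also clustered with scanpy 1.11.5 without the 9 genes. Nuclei flagged as doublets (4.18 to 4.57% per library) stayed in, and an alternative removed them. UMIs were summed per class and library, and CPM taken on each sum. Genotypes and classes were compared with edgeR 4.0.16 (R 4.3.3; TMM, filterByExpr, quasi-likelihood F-test, two-sided, Benjamini-Hochberg adjusted over all genes tested, threshold 0.05), with the library as a block between classes. DESeq2 1.42.0 was an alternative. Classes needed 10 nuclei in each library, which spermatogonia and endothelial nuclei did not reach. The genotype test in Sertoli-gated nuclei and the class test were tested on simulated data. Shares were compared with an exact permutation test. Wilson and Poisson intervals and floors of 3 counts cover counting error only.

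The 9 genes and all lists were chosen with earlier results of these data known. Named were the 9 genes and Dhx37, the 3 genes most like each, and of the 7 lists those past a test and those highest in Sertoli-gated nuclei. Beyond these, Foxl2, Sry, Sox10 and Six4 were named for having no UMI there, and Runx1 as tested. A single gene of the lists is not reported here. Alternatives were other normalizations, filters, gates and clusters, thinning, a replicate block and leaving out each library. Same-numbered libraries did not deviate together (r = -0.08 in Sertoli-gated, -0.25 in Leydig-gated and -0.19 over all nuclei), so numbers were not treated as pairs.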

Additional observations from a re-analysis of the deposited data

How the results depend on the processing

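The direction and significance of the 7 genes tested between Sertoli-gated nuclei and the other classes held under all 61 alternative values, with adjusted p of at most 3.30e-10 (edgeR or DESeq2). Gata1 had a value under 7 alternatives and each other gene under 9. The median log2 difference of all genes in that comparison moved from -0.21 to -0.42 when libraries were scaled by their totals. Counts of genes called between genotypes moved far more, with causes not tested. In Sertoli-gated nuclei they were 0 as reported, 37 with no filter on low counts, and 0 to 483 leaving out 1 library (38 without WT replicate 1, 483 without WT replicate 2, 0 without Dhx37-/- replicate 1, 1 without Dhx37-/- replicate 2). In Leydig-gated nuclei they were 1 by DESeq2, 33 with no filter and 0 to 68 leaving out 1 library. Over all nuclei they were 273 by DESeq2, 127 with no filter and 18 to 6112 leaving out 1 library. In the early germ cell cluster, in place of 109, they were 502 with no filter and 45 to 1130 leaving out 1 library. A lone remaining library was assumed to vary like the other group.

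With a replicate block 0 genes were called in Sertoli-gated and Leydig-gated nuclei, 8 over all nuclei and 295 in the early germ cell cluster. With crossed numbers in the replicate block, added after seeing the data, 68 were called in Leydig-gated nuclei and 1150 over all nuclei.

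Some signs turned among estimates that had not passed the threshold. Gata4 in Sertoli-gated nuclei was at -0.0044 by DESeq2, -0.0075 with RLE size factors, -0.044 with clusters in place of gates, -0.027 without doublets, and -0.083 to 0.21 leaving out 1 library. Leaving out 1 library also gave Wt1 -0.53 to 0.043, Sox8 -0.84 to 1.16, Nr5a1 -0.58 to 0.35 and Dmrt1 -0.57 to 0.44 there, and in Leydig-gated nuclei Gata4 -0.52 to 0.21 and Nr5a1 -0.11 to 0.60. Gata1 in Leydig-gated nuclei was at -0.26 with clusters. The ratio of Sertoli-gated shares, Dhx37-/- over WT, was 4.87 and ran from 3.13 to 10.9 leaving out 1 library. The spermatogonia comparison could not be fitted and its alternatives were not run, since the gate held 2, 0, 6 and 19 nuclei. Depth limits most the WT replicate 2 values, which rest on 13 Sertoli-gated nuclei.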
